A study of Homo sapiens with 4 samples.

Results

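SLC2A1, GAPDH, PKM and ACLY are 4 genes on the route from glucose in the medium to acetyl-CoA in the cytosol. Each was measured here in polysome-bound mRNA of the human ATOH1 lineage (IP) and in the input RNA (input). The members were given by name, as 4 of 1648 genes that could be tied to the transcripts in the data. In the normalised counts all 4 were lower in each of the 3 IP libraries than in the input. SLC2A1 was at 12.5% to 16.0% of the input, PKM at 23.8% to 27.9%, ACLY at 30.0% to 32.9% and GAPDH at 51.2% to 61.6%. SLC2A1, PKM and ACLY passed the test across all genes and transcripts and GAPDH did not (adjusted p = 0.0572, edgeR's quasi-likelihood test). Of all genes and transcripts tested 6.61% had a lower fold change than SLC2A1, 10.1% than PKM, 12.3% than ACLY and 24.5% than GAPDH. The test called 1.48% of them lower, and 26.9% of the 1648 genes.

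Glucose enters most cells through facilitative transporters, and SLC2A1 encodes GLUT1, the transporter of the blood-brain barrier and of many proliferating cells. Glycolysis then splits glucose to pyruvate in the cytosol. GAPDH encodes the dehydrogenase that makes NADH in the middle of that pathway and is widely used as a housekeeping gene, and PKM encodes the pyruvate kinase that closes it. ACLY encodes ATP-citrate lyase, which cleaves citrate exported from mitochondria to acetyl-CoA, the building block of fatty acids and sterols and the donor for histone acetylation.

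All libraries came from ATOH1-EGFP-L10a cells, which are clonal derivatives of the human embryonic stem cell line RUES2. In them a human ATOH1 enhancer on an integrated transgene drives an EGFP-tagged ribosomal protein, L10a, so that an antibody against GFP pulls down the polysomes of cells in which the enhancer is or was active. Which clone was used is not given in the sources used here, and the transgene is present in the input as well. The cells had been differentiated towards the cerebellar granule cell lineage with dual SMAD inhibition (DIV0–7), CHIR99021 (DIV1–11), FGF2 (DIV1–28), BMP7 (DIV7–15) and BDNF (DIV11–28), and all groups were collected at DIV28 after 10 min in cycloheximide at 100 µg/ml. The 3 IP libraries came from separate differentiation experiments, and there is 1 input library, so nothing is known of the spread of the input. Which culture the input came from is not given in the sources used here. A figure legend of the paper calls the input unbound, so it may not hold the RNA of a whole culture. Whether it matches the cultures of the IPs was not tested. The libraries held 34603230 to 41173019 estimated reads.

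The labels and the deposited files disagree on the input. The sample labelled as input carries a file tagged T106, and the file tagged T113 belongs to a sample labelled as IP. The title of the sample labelled as input holds both tags. The file tags were followed here, with the T113 library as input and the 3 T106 libraries as IPs. What the tags stand for is not given in the sources used here. Any other difference between T106 and T113 cannot be told apart from IP against input. For genes other than the members, the mean count and fold change of the study's gene table were matched together, with each library in turn as input. Only close matches were kept. With the T113 library as input 422 genes were kept, with a median difference in mean count of 1.0e-06 on the natural log scale. With any of the other 3 libraries as input only 5 or 6 genes could be fitted. A mean count does not depend on which library is the input, so the fold changes made this difference. The match tells which library the study's fold changes took as input. With the input as labelled, the log2 fold changes of the members were 1.41 (SLC2A1), 0.50 (GAPDH), 1.05 (PKM) and 0.86 (ACLY), each with an adjusted p of 1.00 from edgeR, so every direction given below rests on this assignment. ATOH1 itself had 935, 1330 and 1228 reads in the IPs against 7 in the input. Of 12 genes listed for the ATOH1 lineage 9 could be measured, and all 9 were higher in the IPs by the test. All 9, ATOH1 among them, had been called by the study and were tied to transcripts with the help of its fold changes. Their direction is therefore no separate check of the assignment. Of all 1648 genes tied to transcripts 29.2% were called higher and 26.9% lower.

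The deposited tables name transcripts by UCSC identifiers and give no gene symbols. SLC2A1 was tied to uc001cik.2, whose mean count equals that of SLC2A1 in the study's table within 0.001%. GAPDH was tied in the same way to uc001qop.2 and uc031qfw.1. Over all transcripts 6 runs of neighbours, not all necessarily distinct in their counts, lay within 0.001% of the mean count of SLC2A1. With the table's fold change 1 was left. For GAPDH 1 run lay that near. PKM was tied to 10 neighbouring transcripts and ACLY to 5, whose summed mean counts lie within 0.62% and 1.4% of the table's. For PKM and ACLY the table's fold change was also needed to choose among 11 and 2 candidate runs of transcripts at that place in the file. The table's fold change was part of the match for every member, so the members' fold changes are not independent of the study's. On the length-corrected scale of the study's table, which differs from the scale of the fold changes below, every candidate run had a log2 ratio below 0, from -2.01 to -1.84 for PKM and from -1.53 to -0.16 for ACLY. In GENCODE v44 on GRCh37, SLC2A1 lies at chr1:43391024-43424564 (minus strand), GAPDH at chr12:6643678-6647540 (plus strand), PKM at chr15:72491370-72524160 (minus strand) and ACLY at chr17:40023170-40086795 (minus strand). The genes tied to transcripts on either side of each member in the file are on the same chromosome, such as SVBP and PIK3R3 beside SLC2A1.

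Annotated promoters of the members are shown for reference, and no link between their sequence and the fold changes was tested. Each sequence runs from 250 bases before to 50 bases after the annotated start in RefSeq on GRCh38.p14, at chr1:42958819-42959118 for SLC2A1, chr12:6535014-6535313 for GAPDH, chr15:72231141-72231440 for PKM and chr17:41918973-41919272 for ACLY, which is the first of 2 starts listed for that gene. Capitals mark 3 motifs searched on both strands, the GC box GGGCGG bound by SP1 family factors, the CCAAT box CCAAT bound by NF-Y, and the E-box CACGTG bound by MYC, USF and related factors.
SLC2A1: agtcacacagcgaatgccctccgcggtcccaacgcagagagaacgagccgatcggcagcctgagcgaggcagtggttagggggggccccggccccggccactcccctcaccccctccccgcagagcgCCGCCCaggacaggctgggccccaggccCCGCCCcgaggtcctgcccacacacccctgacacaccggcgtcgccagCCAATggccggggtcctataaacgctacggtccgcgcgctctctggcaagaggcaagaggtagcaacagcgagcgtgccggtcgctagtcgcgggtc
GAPDH: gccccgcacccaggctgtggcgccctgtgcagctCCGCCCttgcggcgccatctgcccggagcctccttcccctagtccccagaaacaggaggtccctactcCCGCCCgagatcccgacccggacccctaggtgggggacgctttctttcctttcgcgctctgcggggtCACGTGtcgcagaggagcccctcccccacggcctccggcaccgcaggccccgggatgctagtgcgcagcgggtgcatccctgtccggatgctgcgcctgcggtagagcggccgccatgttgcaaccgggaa
PKM: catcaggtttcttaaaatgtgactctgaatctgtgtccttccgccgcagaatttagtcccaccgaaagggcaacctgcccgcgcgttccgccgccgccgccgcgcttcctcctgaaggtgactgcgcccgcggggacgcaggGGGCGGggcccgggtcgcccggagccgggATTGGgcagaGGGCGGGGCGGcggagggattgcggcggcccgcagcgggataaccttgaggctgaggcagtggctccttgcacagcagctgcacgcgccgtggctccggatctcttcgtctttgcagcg
ACLY: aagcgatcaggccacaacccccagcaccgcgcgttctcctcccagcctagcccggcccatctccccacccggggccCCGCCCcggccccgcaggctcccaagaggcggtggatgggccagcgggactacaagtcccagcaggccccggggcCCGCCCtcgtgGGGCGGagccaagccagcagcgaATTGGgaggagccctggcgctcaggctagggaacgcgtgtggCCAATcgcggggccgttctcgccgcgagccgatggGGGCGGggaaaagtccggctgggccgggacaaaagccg
The 4 promoters held 2, 2, 3 and 4 GC boxes, and the motif was present in 44.6% of 27305 promoters of this length. A CCAAT box stood once in SLC2A1, once in PKM and 2 times in ACLY, and in 35.7% of all promoters. GAPDH had none and was the one member with the E-box, which 7.43% of promoters held. The last 2 GC boxes of PKM overlap each other. Between 68% and 73.3% of the bases were G or C, against a median of 58.3% over all promoters. These are matches of letters, and no binding was measured. The starts were not matched to the transcripts that carried the reads here. The sequences may therefore not be the promoters of those transcripts, for GAPDH as for the others.

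SLC2A1 had 988, 958 and 793 reads in IP replicates 1, 2 and 3 and 6961 in the input. With TMM scaling, this came to 27.6, 26.0 and 21.4 CPM (counts scaled to library size) in the IPs, with 172 CPM for the input. The input was more than 6 times as high as every IP, and the counting interval of the input (95% Poisson, 168 to 176 CPM) was narrow beside that gap. The log2 fold change was -2.78 with a standard error of 0.18 (adjusted p = 0.0209, edgeR's quasi-likelihood test), and 6.61% of the 43828 genes and transcripts tested had a lower one. As TPM, which also corrects for transcript length, SLC2A1 averaged 8.33 ± 1.40 (SD, n = 3) over the IPs, with 72.0 for the input. It varied more among the IPs than PKM, ACLY or GAPDH, with a coefficient of variation of 12.7%.

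GAPDH was the most abundant of the members. It had 49448, 55064 and 61515 reads in the IPs beside 109248 in the input. The CPM were 1381, 1492 and 1664 for the IPs and 2699 for the input. The log2 fold change was -0.84 with a standard error of 0.14 and did not pass the test. With DESeq2 it passed (adjusted p = 6.6e-09), where 7.89% of genes and transcripts were called lower, and it also passed in edgeR when features with fewer than 2 libraries of at least 50 reads were left out (adjusted p = 0.0271). GAPDH has many processed pseudogenes in the human genome, so reads assigned to its transcripts are uncertain to the extent that these copies share sequence.

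PKM had 9708, 9742 and 11410 reads in the IPs, with 44806 in the input. This gave 271, 264 and 309 CPM against 1107 CPM, and the 3 IPs lay close together and far below the input. The log2 fold change was -1.98 with a standard error of 0.13 (adjusted p = 0.0209, edgeR's quasi-likelihood test). The TPM of PKM averaged 190 ± 12.3 (SD, n = 3) over the IPs, with 843 for the input.

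ACLY had 3652, 3881 and 4138 reads in the IPs against 13758 in the input. In CPM it was at 102, 105 and 112 in the IPs beside 340 in the input. It varied least of the members among the IPs, with a coefficient of variation of 4.78%. The log2 fold change was -1.68 with a standard error of 0.11 (adjusted p = 0.0215, edgeR's quasi-likelihood test).

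**Figure D1:**
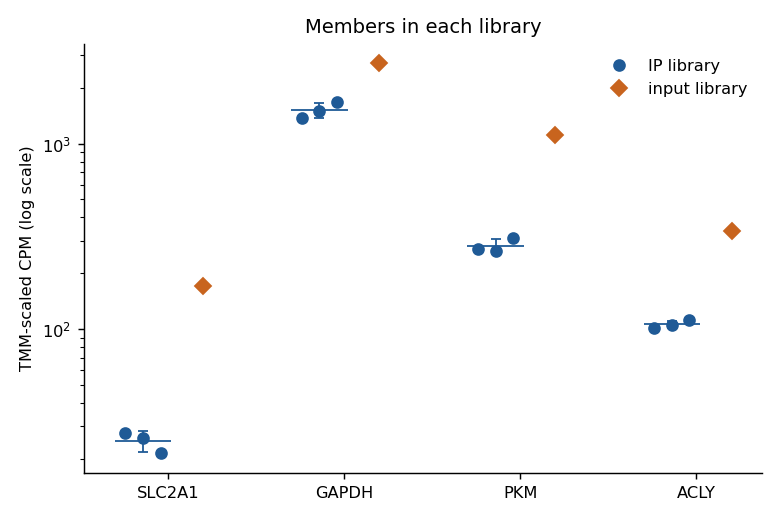
TMM-scaled CPM (log axis) of the 4 members in the 3 IP libraries (circles, with their mean as a line and the SD as an error bar) and in the input library (diamond). The input lies above all 3 IPs for each gene, and the gap is widest for SLC2A1 (25.0 CPM on average in the IPs, 172 CPM in the input) and narrowest for GAPDH (1512 and 2699 CPM).

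Thus 3 of 4 members were called lower. Of all genes and transcripts tested, edgeR called 1.48% lower and 2.3% higher, and over all of them the median log2 fold change was 0.10, against -1.83 over the 4 members. The members had been chosen with earlier results of these data known, and each of them is in the part of the study's table that was used, so the count says nothing of how often genes of this pathway are lower. All tests use the spread of the 3 IPs for the single input. With any one IP left out, the adjusted p of every member was above 0.05 (0.106 to 0.246, edgeR), as that of GAPDH was with all 3. Every fold change stayed negative. With limma-voom 0 of the members and 0 genes and transcripts in all were called (10203 at an unadjusted p under 0.05). In bulk libraries such as these, fewer cells of a type and less RNA per cell cannot be told apart. The IPs hold polysome-bound RNA, so the fold changes do not measure the amount of RNA alone.

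**Figure D2:**
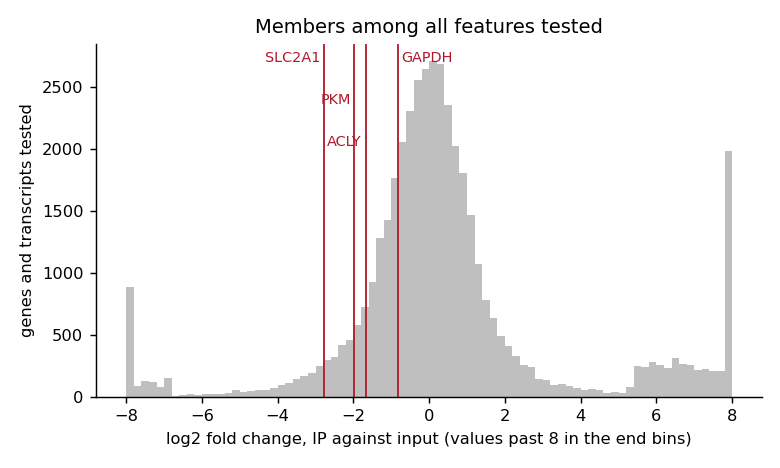
Histogram of the log2 fold change of IP against input over the 43828 genes and transcripts tested, in bins of width 0.2, with the members as red lines. All 4 lie left of the median of 0.10, at -2.78 (SLC2A1), -1.98 (PKM), -1.68 (ACLY) and -0.84 (GAPDH), and the end bins hold values past 8.

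In TPM, which allows levels of different genes to be compared, the order of the members was the same in all 4 libraries, with GAPDH highest, then PKM, ACLY and SLC2A1. The distances between them were not the same. PKM stood at 0.137, 0.117 and 0.125 of the GAPDH level in the IPs, with 0.247 for the input. ACLY stood at 0.0233, 0.0223 and 0.0212 of GAPDH in the IPs, with 0.0352 in the input. SLC2A1 stood at 0.00662, 0.00577 and 0.00427 of GAPDH in the IPs against 0.0211 in the input, so that its share relative to GAPDH was 3.80 times larger in the input than the IP mean. These ratios are taken within a library and do not depend on how the libraries were scaled. They are given as values, without a test, because there is 1 input. ACLY relative to PKM was the one pair in the other direction, at 0.171, 0.191 and 0.170 in the IPs beside 0.142 in the input.

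**Figure D3:**
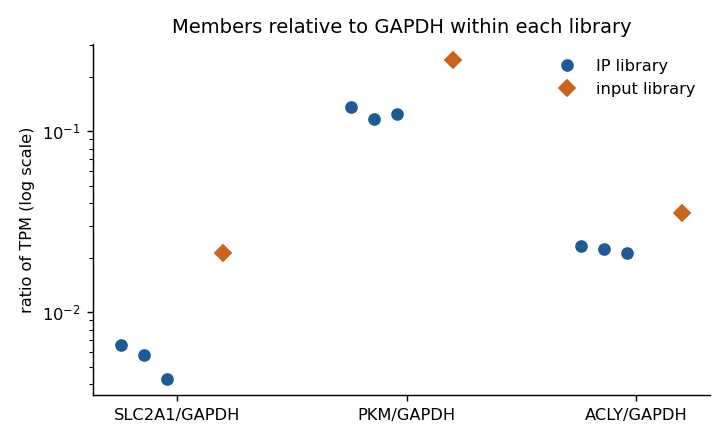
Ratio of the TPM of SLC2A1, PKM and ACLY to that of GAPDH within each library (log axis), with IP libraries as circles and the input as a diamond. Each ratio is higher in the input than in all 3 IPs, by 3.80 times the IP mean for SLC2A1, 1.96 for PKM and 1.58 for ACLY.

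The reads of PKM and ACLY were not spread over their transcripts in the same way in the IPs as in the input. PKM is known for a pair of protein forms, M1 and M2, made by choosing between exons of equal length, and the identifiers used here were not tied to either form. Of the 2 PKM transcripts of 2501 bases, uc002aty.2 carried 66.9%, 72.3% and 70.3% of the reads in the IPs, with 79.2% in the input. The other, uc002atx.2, had 0 reads in every library, which allows up to 3 reads in each, for counting error only. The short transcript uc002atr.1 (1121 bases) held 18.5%, 15.1% and 16.0% of PKM reads in the IPs against 7.10% in the input. Tested on its own, uc002aty.2 was lower in the IPs (log2 fold change -2.16, standard error 0.13, adjusted p = 0.0229, edgeR), while uc002atr.1 was at -0.76 and did not pass (adjusted p = 0.132, edgeR).

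In ACLY a single transcript went the other way from the gene. The shortest, uc010wfy.2 (3540 bases), had 2071, 2261 and 2362 reads in the IPs beside 437 in the input. It thus carried 56.7%, 58.3% and 57.1% of ACLY reads in the IPs, with 3.18% in the input. On its own it was higher in the IPs by 2.50 on the log2 scale (standard error 0.18, adjusted p = 0.0252, edgeR), in a fit where 1.95% of transcripts were called higher and 1.1% lower. The other 4 ACLY transcripts, of 4323 to 4357 bases, together had 1581, 1620 and 1776 reads in the IPs against 13321 in the input. In CPM their sum was 44.2, 43.9 and 48.0 in the IPs against 329 in the input, a log2 ratio of -2.86 against -1.68 for the whole gene. How the reads fell among these 4 differed between the IPs, from 1.01% to 17.6% of the gene's reads for uc002hyh.3. Salmon divides reads that several transcripts share by an estimate, and the split between transcripts that differ by few bases is uncertain. What sets uc010wfy.2 apart in sequence was not examined. With more of the reads on shorter transcripts, the mean effective length was 3591 bases in the IPs beside 4056 in the input for ACLY, and 1678 and 1881 for PKM.

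**Figure D4:**
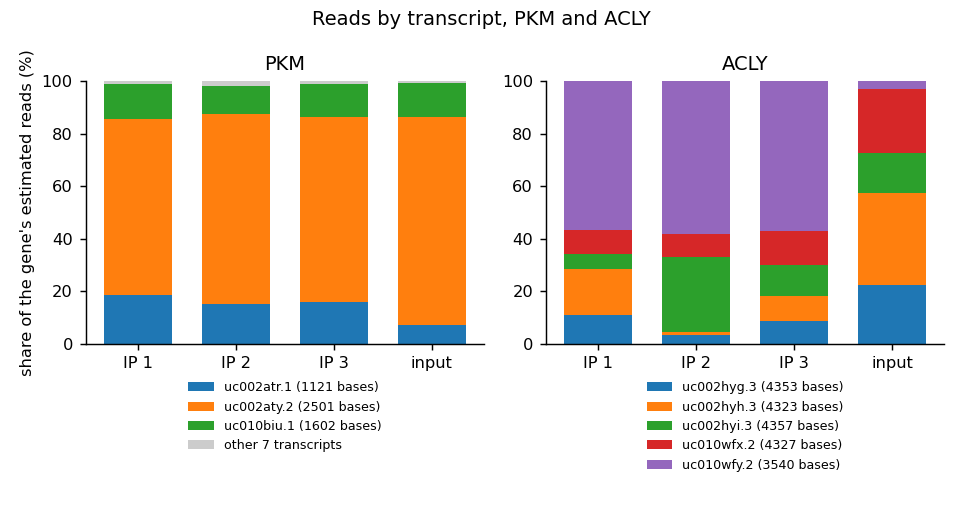
Share of the estimated reads of PKM (left) and ACLY (right) on each transcript, in percent, for the 3 IPs and the input. In ACLY the 3540-base transcript uc010wfy.2 holds 56.7% to 58.3% of the reads in the IPs, with 3.18% in the input, and in PKM uc002aty.2 is the main transcript in all 4 libraries.

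Transcript length moved with the fold change. Across the 1648 genes tied to transcripts, Spearman's rho between effective length and log2 fold change was -0.42, and across all genes and transcripts tested it was -0.12 (genes within the same 4 libraries, not independent replicates). The 1648 genes are a selection, since all had been called by the study, and the counts that follow cover them alone. Of 666 genes with an effective length under 2000 bases, 80 had a log2 fold change below 0. Between that and 4000 bases 439 of 610 did, and of 372 genes of 4000 bases or more, 288 did. GAPDH (1134 bases) and PKM (1729 bases on average) are in the short class and SLC2A1 (3421 bases) and ACLY (3707 bases) in the middle one. Its part in the result was not tested.

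The other genes of these pathways were taken from lists of glucose and lactate transport, glycolysis, pyruvate to citrate, acetyl-CoA and fatty acid synthesis, sterol synthesis, the pentose phosphate pathway and serine synthesis. Of 129 genes on the 7 lists 26 could be tied to transcripts, 22 of them not members, and the remaining 103 were not analysed here. All 26 had been called by the study, which makes them a selection. Of all 1648 genes tied to transcripts, which share this selection, edgeR called 443 (26.9%) lower and 481 (29.2%) higher. Of the 22, it called 9 lower and 2 higher, and 11 did not pass, of which 8 had a log2 fold change below 0.

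In glycolysis 9 of 32 listed genes were measured, and 4 were lower, 1 was higher and 4 did not pass. HK1, the hexokinase that traps glucose as glucose 6-phosphate, fell to 75.5, 84.3 and 78.0 CPM from the 251 CPM of the input (-1.66 on the log2 scale, adjusted p = 0.0233, edgeR). GPI, the isomerase of the next step, was lower by a smaller amount (-0.88, adjusted p = 0.0478, edgeR). PFKFB3, which makes the activator of phosphofructokinase, had 29.9, 15.0 and 20.5 CPM in the IPs beside 55.9 CPM in the input, without passing (adjusted p = 0.173, edgeR). Below GAPDH in the pathway, PGK1 was at -0.97 without passing (adjusted p = 0.119, edgeR), and ENO1, the main enolase, was lower at -1.11 (adjusted p = 0.0396, edgeR). PGK1 and ENO1 have processed pseudogenes, as GAPDH does.

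ENO3, the enolase known from muscle, lay on the other side, at 21.5, 26.0 and 25.1 CPM in the IPs, above the 4.47 CPM of the input (2.44 on the log2 scale, adjusted p = 0.0390, edgeR). It stood far below ENO1 in the IPs, with a mean of 23.8 TPM against 326.

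For lactate, SLC16A1, the monocarboxylate transporter MCT1, had 78.8, 87.3 and 93.0 CPM in the IPs beside 157 CPM in the input, with an adjusted p of 0.0576 from edgeR. Between pyruvate and citrate 4 of 20 genes were measured. PDP1, the phosphatase that activates pyruvate dehydrogenase, was lower (-1.44, adjusted p = 0.0424, edgeR). ACO1, the cytosolic aconitase, was at -1.40 and DLD, a subunit of pyruvate dehydrogenase, at -0.97, and neither passed.

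Downstream of ACLY, ACSL3, which activates fatty acids, was at -1.23 and did not pass (adjusted p = 0.0679, edgeR). Of 24 sterol genes 7 were measured. LSS (-1.06) and the transcription factor SREBF2 (-1.11) were lower by the test, and TM7SF2, a sterol reductase, was higher (1.77, adjusted p = 0.0376, edgeR). HMGCS1 was at -1.04 and EBP at 0.93, and neither passed. PSAT1, which takes a glycolytic intermediate towards serine, was lower (-1.42, adjusted p = 0.0461, edgeR), and PGLS of the pentose phosphate pathway was at 0.98 without passing (adjusted p = 0.0513, edgeR).

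**Figure D5:**
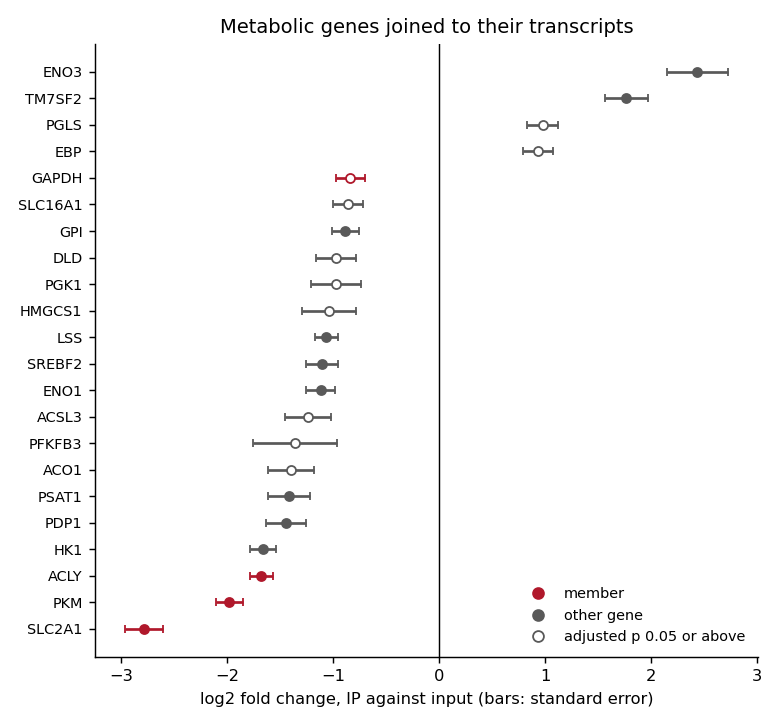
Log2 fold change of IP against input for 22 of the 26 metabolic genes tied to transcripts, with the standard error as bars, members in red and genes that did not pass the test as open circles. SLC2A1, PKM and ACLY have the 3 lowest values of these, GAPDH has the value nearest to 0 of those below it, and ENO3, TM7SF2, PGLS and EBP lie above 0.

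The genes whose pattern over the 4 libraries was nearest to each member were found by the distance between log2(CPM + 1) values centred on their mean, over 1648 genes. For SLC2A1 these were ECM1 (distance 0.0959), SGK1 (0.103) and MTRNR2L4 (0.127), the last of which resembles a mitochondrial rRNA in sequence. For GAPDH they included HNRNPU (0.0476) and SLC16A1 (0.0493), so that the lactate transporter and GAPDH had nearly the same pattern. PLK2, TRO and CTNNA1 (0.0555 to 0.117) were nearest to PKM, and RPS6KA3, SCRG1 and SULF1 (0.0298 to 0.0932) to ACLY. Among the members PKM and ACLY were closest to each other (0.284) and SLC2A1 and GAPDH farthest apart (1.71).

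Markers of other cell types also differed between IP and input. The measured markers are a selection, since all had been called by the study and were tied to transcripts with the help of its fold changes. SLC2A1 is known from endothelial cells, and 3 of 12 endothelial markers were measured. Their summed level was 203 to 259 CPM in the IPs beside 1009 CPM in the input, where ADGRL4 alone was at 691 CPM and ENG at 318 CPM. CLDN5 went the other way, with 29.1, 22.9 and 12.6 CPM in the IPs against 0.62 CPM in the input, and was higher by the test (adjusted p = 0.0498, edgeR). Of 12 mesenchymal and pericyte markers COL1A1 and DCN were measured, with a sum of 1032 to 1187 CPM in the IPs, with 3052 CPM in the input. For neural stem cells and radial glia 5 of 12 were measured, with a sum of 365 to 388 CPM in the IPs against 1525 CPM in the input. TNC alone was at 1058 CPM in the input. By the test 3 of the 5 were lower, TNC and SOX9 among them, and SOX2 was higher. In all IPs 2 of the 5 lay above the input. For the neural crest and Schwann lineage 2 of 9 were measured, with a sum of 227 to 241 CPM for the IPs and 723 CPM for the input. Of these, PMP22 was lower by the test (682 CPM in the input), and NGFR had 92.9, 91.1 and 77.5 CPM in the IPs against 40.8 CPM in the input without passing. No measured marker was at 0 in any library. The measured markers of roof plate and choroid plexus (4 of 9) summed to 783 to 1048 CPM in the IPs beside 122 CPM in the input. MSX1 and RSPO3 made up most of that sum and were higher by the test, whereas AQP1 had 3.43, 2.57 and 1.92 CPM in the IPs against 16.0 CPM in the input without passing. The pluripotency marker LIN28A, 1 of 8 listed, was at 12.1 to 20.3 CPM in the IPs, with 2.12 CPM in the input. The part of other cell types in the lower level of the members was not tested.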

How the data were processed

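RNA bound to EGFP-tagged polysomes and input RNA were sequenced by the authors as 75-base single reads from 3 IPs and 1 input. The deposited values are estimated counts and TPM of 69548 transcripts per library, which the authors obtained with Salmon 0.8.2 on hg19 UCSC transcripts. No replicates were pooled. Genes were named through the study's table, of which 1998 genes were used here. A gene was a run of 1 to 20 neighbouring transcripts that gave its mean count to within 2% and, with the dispersion its standard error implies, its fold change to within 1e-05 on the log2 scale. The table's fold changes were not meant to be used for the members, but they entered the match for every member. The mean count alone did not settle SLC2A1, PKM and ACLY. This gave 1648 genes, and 45 with several matches were left out. The other transcripts were kept singly. No value of the table is printed.

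The members, gene lists and tests were chosen with earlier results of these data known. Samples were grouped by the file tags, because the labels disagree with them. Estimated counts were rounded and tested with edgeR 4.0.16 in R 4.3.3 (TMM, default filter with a minimum count of 10, quasi-likelihood test, Benjamini-Hochberg adjustment over all genes and transcripts, threshold 0.05). Log2 fold changes were fitted by edgeR, and their standard errors were computed from the F statistic. CPM are TMM-scaled. Alternatives were DESeq2 1.42.0, limma-voom with limma 3.58.1, other scalings and filters, a length offset, leaving out each IP, the input as labelled, and a fit to single transcripts. The code was checked on simulated counts. Library totals of 34603230 to 41173019 reads limit the precision. Intervals on single counts (95%, Poisson) take in counting error alone, since the reads carry no molecular identifiers. Genes named are the members, the measured genes of the metabolic lists, up to 3 of each marker list with ATOH1 besides, and the 3 genes nearest in pattern to each member. One fit, ACLY without a transcript, was added after seeing the data. A few genes that this rule allows enter the counts and are not reported here by name.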

Additional observations from a re-analysis of the deposited data

How the results depend on the processing

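Direction did not change for any member with another scaling, filter, tool or length offset. With the input as labelled, the log2 fold changes were 1.41 (SLC2A1), 0.50 (GAPDH), 1.05 (PKM) and 0.86 (ACLY), and 0 members, 0 lower and 0 higher genes and transcripts passed edgeR's test (1266 at an unadjusted p under 0.05). The alternative exchanges an IP for the input. When each transcript was tested on its own, ACLY was represented by the transcript with the most reads summed over the 4 libraries, uc010wfy.2, at 2.50, although it had the fewest in the input. SLC2A1 and PKM passed in that setting and GAPDH did not, as with summed transcripts, and the 3 members past the threshold include ACLY in the opposite direction.

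With limma-voom SLC2A1 was at -2.79, PKM at -1.98 and ACLY at -1.68, none past the threshold, and 0 members, 0 lower and 0 higher genes and transcripts passed. GAPDH passed with DESeq2 (-0.88) and with at least 50 counts in 2 libraries (-0.84). The genes and transcripts called were 4031 lower and 5757 higher with DESeq2 and 1150 lower and 1870 higher with that filter, against 650 and 1009. Leaving out 1 IP gave -2.86 to -2.69 for SLC2A1, -0.92 to -0.77 for GAPDH, -2.06 to -1.95 for PKM and -1.72 to -1.65 for ACLY, with 0 members and 0 genes and transcripts past the threshold (6708 to 7945 at an unadjusted p under 0.05 in edgeR). The cause was not tested, beyond there being fewer samples. In TPM the mean ratio of IP to input was 0.116 for SLC2A1, 0.443 for GAPDH, 0.226 for PKM and 0.280 for ACLY, against 0.145, 0.560, 0.254 and 0.313 in CPM. No paired analysis was possible because there is 1 input library. The single input sets the limit on every comparison.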
